A study of Ovis aries with 20 samples.

Results

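Adhesion G protein-coupled receptors (GPCRs) were followed in the developing trachea of sheep with and without cystic fibrosis (CF), which arises where the chloride and bicarbonate channel CFTR is missing or does not work. The 6 genes are ADGRG7, ADGRE5, ADGRG6, ADGRF1, ADGRF5 and ADGRL2, taken by symbol from the 24478 genes of the CF and wild type (WT) count tables. All 6 passed the filter on low counts that left 20097 genes for testing. ADGRG7 and ADGRE5 were chosen because their levels differed between CF and WT at day 65 and at birth, so their genotype differences and their development are described here without a test. The other 4 stand beside them as members of the same receptor family. RNA sequencing counts came from frozen tracheal tissue labelled epithelial, from CF animals and from WT animals called healthy in the labels, at days 65, 80, 100, 120 and 147, the last being birth. Each of the 10 groups of genotype and age held 2 samples, 20 in all, and the labels give neither the CFTR allele nor any treatment.

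Adhesion GPCRs are surface receptors with a long extracellular part that binds matrix proteins or proteins of neighbouring cells. In most of them that part is cut from the membrane-spanning part during folding and stays attached, and when it is pulled away or bends, a short stalk stretch called the tethered agonist turns the receptor on. In the lung and airway they are known from surfactant control by ADGRF5, from leukocytes that carry ADGRE5, and from the Schwann cells of nerves, which need ADGRG6 to make myelin.

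The shallowest library, WT day 65 replicate 2, held 42372433 counts, and the deepest, WT day 100 replicate 2, held 87651829. The 14 epithelial markers summed to 1538 to 9674 CPM (counts per library scaled by depth) in each library and none was at 0 in any library, but markers of endothelium, nerve, smooth muscle and leukocytes were read in all libraries too. In 4 libraries markers of another tissue stood out, namely liver in CF day 65 replicate 2, skeletal muscle in CF day 80 replicate 1, thymus and skeletal muscle in WT day 65 replicate 2, and thyroid and thymus in WT day 80 replicate 2. Both CF birth samples carry 1 sample identifier, as do both WT day 100 samples, and CF day 100 replicate 2 and WT day 65 replicate 2 share another. In CF day 65, CF day 80, WT day 80 and WT day 120 the 2 identifiers of a group differ only in their last figure. In CF day 100, CF day 120, WT day 65 and WT birth they differ more. The labels do not say whether an identifier stands for an animal or a litter. Nothing states outright that samples of a group came from separate animals, so a p-value reflects only sample-to-sample spread, which could be technical. CFTR was read in every library, at 4.30 to 37.1 CPM in CF and 10.2 to 37.8 CPM in WT, and with no allele given these levels do not check the genotype. The slope of a library's log2 levels on log2 exon length, 0 where long and short genes read as in the average library, ran from -0.24 to 0.24. In such bulk tissue, fewer cells of a type and less RNA per cell cannot be told apart.

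Set against each other per kilobase of exon, the 6 genes lay in the upper part of the family. Of 33 adhesion GPCR genes looked for, 30 were in the tables and all of these were tested. ADGRE5 had the highest level of the 30, at a mean of 21.4 CPM per kb in CF and 26.2 CPM per kb in WT. ADGRF1 stood 7th, ADGRL2 8th, ADGRG6 9th, ADGRF5 10th and ADGRG7 11th, all between 5.37 and 7.57 CPM per kb over the 20 libraries. The receptors between them and ADGRE5 were ADGRG1, CELSR1, ADGRA3, ADGRL1 and ADGRA2, from 9.32 to 16.2 CPM per kb, and ADGRF4 was lowest at 0.0221 CPM per kb.

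**Figure D1:**
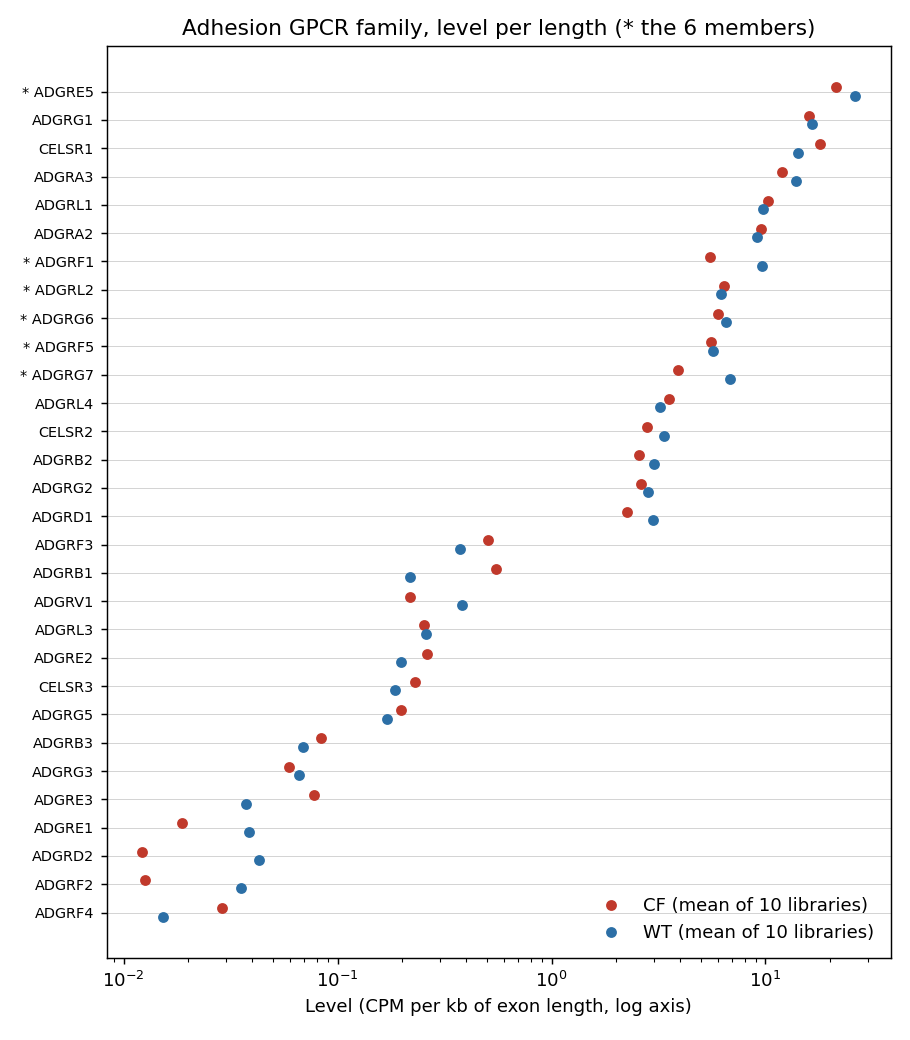
Mean level of the 30 adhesion GPCR genes in CF (red, 10 libraries) and WT (blue, 10 libraries), in CPM per kilobase of exon on a log axis, ordered by the mean of all libraries. The 6 described genes carry a star; ADGRE5 is at the top, at 21.4 in CF and 26.2 in WT, and the other 5 follow one another at ranks 7 to 11.

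ADGRG7, also known as GPR128, is an orphan receptor known mainly from the intestine, and mice without it have altered gut contractions. In the files it lies on chromosome 1 from 163315907 to 163383033 on the plus strand, with 2964 bases of exon (build not given in the sources used here). CF tracheas held very little of its RNA early and reached the WT range by day 120. In CF it stood at 0.809 and 0.693 CPM at day 65, at 1.595 and 1.617 CPM at day 80, at 10.8 and 7.84 CPM at day 100, at 12.8 and 33.9 CPM at day 120 and at 28.3 and 17.1 CPM at birth. In WT it stood at 26.1 and 18.1 CPM at day 65, at 6.27 and 4.27 CPM at day 80, at 16.2 and 20.4 CPM at day 100, at 41.0 and 16.9 CPM at day 120 and at 32.0 and 21.6 CPM at birth. The 2 CF libraries lay below both WT libraries at days 65, 80 and 100, and the genotypes overlapped at day 120 and at birth.

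In CF each age up to day 120 had a higher ADGRG7 mean than the one before it, while WT had its lowest level at day 80. At day 65 the CF level rested on 57 and 43 counts, against 2056 and 905 counts in WT. The log2 fold change of CF over WT was -4.87 ± 0.58 (SE) at day 65, where the WT mean was 29.4 times the CF mean. It was -1.71 ± 0.51 at day 80, -0.98 ± 0.49 at day 100 and -0.31 ± 0.49 at day 120, and birth gave -0.24 ± 0.49. Leaving out 1 library moved it from -1.18 to 0.47 at day 120 (the last without WT day 120 replicate 1) and from -0.64 to 0.08 at birth (the last without WT birth replicate 1), so these 2 ages have no order. Over the mean of the ages it was -1.62 ± 0.22. Without the 4 libraries with markers of another tissue it was -5.01 at day 65. These values chose the gene and are a description; over all tested genes CF was below WT in both libraries for 23.7% at day 65, 10.8% at day 80 and 30.0% at day 100. In the order of group means the 6 highest, from WT day 120 at 28.9 ± 17.0 CPM through WT birth, CF day 120, CF birth and WT day 65 to WT day 100 at 18.3 ± 2.97 CPM (SD, n = 2 each), each overlapped the next. Below them CF day 100 (9.31 ± 2.08 CPM), WT day 80 (5.27 ± 1.41 CPM), CF day 80 (1.61 ± 0.0156 CPM) and CF day 65 (0.751 ± 0.0819 CPM) stood apart from one another.

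**Figure D2:**
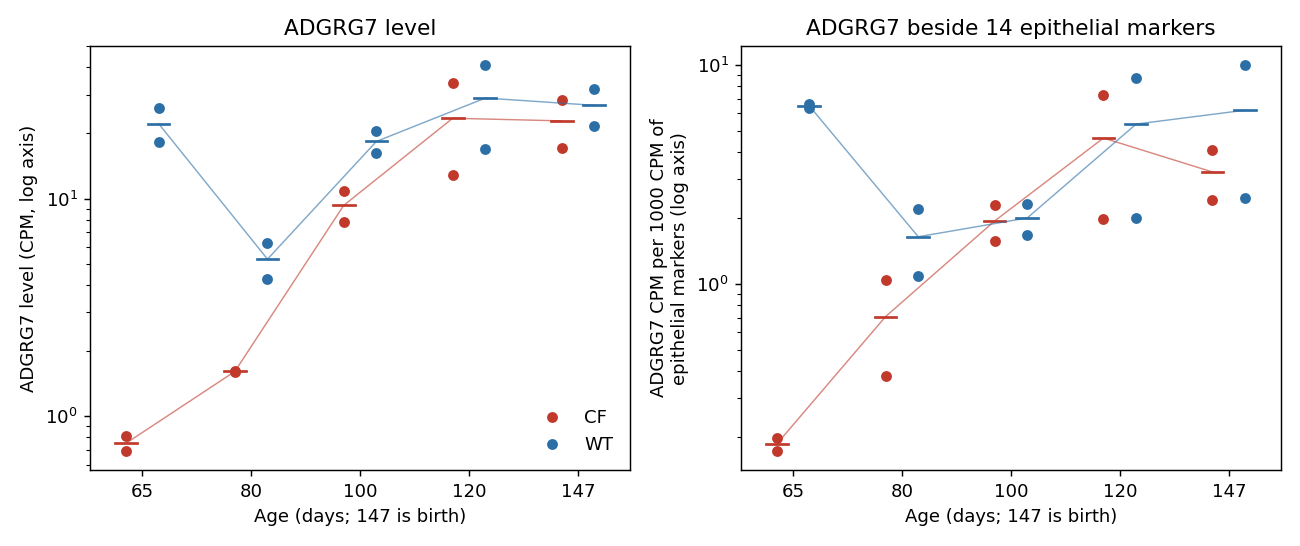
ADGRG7 in each library by age, CF in red and WT in blue, as CPM on a log axis (left) and per 1000 CPM of the summed 14 epithelial markers on a log axis (right); points are libraries, bars the mean of 2, and lines join the means. At day 65 the CF libraries lie at 0.809 and 0.693 CPM against 26.1 and 18.1 CPM in WT, and on the right the gap at that age remains while the genotypes overlap from day 100 on.

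The 14 epithelial markers summed to 4690 and 3498 CPM in CF and 3923 and 2858 CPM in WT at that age. Per 1000 CPM of these markers ADGRG7 was at 0.172 and 0.198 CPM in CF and at 6.64 and 6.35 CPM in WT. Multiciliated cell markers summed to 1050 and 832 CPM in CF and 576 and 814 CPM in WT. At day 65 neither sum was lower in CF, and which cells carry ADGRG7 here was not tested. At day 80 the epithelial sum was 1538 and 4247 CPM in CF and 5755 and 1947 CPM in WT, and at day 100 it was 4691 and 4979 CPM in CF and 9674 and 8775 CPM in WT, so at day 100 it was lower in CF together with ADGRG7. Per 1000 CPM of these markers ADGRG7 stood at 1.04 and 0.381 CPM in CF and 1.09 and 2.19 CPM in WT at day 80, still without overlap. At day 100 it stood at 2.30 and 1.57 CPM in CF and 1.67 and 2.33 CPM in WT, so the genotypes overlapped on that scale. Of the 12 intestinal epithelial markers 6 passed the filter (VIL1, LGALS4, CDH17, GUCA2A, GPA33 and HNF4G) and were read in every library, GPA33 highest at 4.55 to 34.9 CPM. The defining intestinal regulators CDX2 and ISX were at 0 in 19 and in all 20 libraries. Averaged over the ages VIL1 was called higher in CF (1.80, edgeR adjusted p = 0.0106), beside 0.766% of all tested genes called. For birth against day 65, GPA33 was called higher in CF (1.59, edgeR adjusted p = 0.0182) and in WT (1.99, edgeR adjusted p = 0.00531). CDH17 was called higher in CF (4.35, edgeR adjusted p = 0.0178) and not in WT. Over both genotypes GPA33 (1.79, edgeR adjusted p = 0.000377) and CDH17 (3.39, edgeR adjusted p = 0.00305) were called higher. Of all tested genes 1.78% were called higher for that comparison in CF, 3.70% in WT and 8.77% over both. The summed intestinal list was 22.4 and 35.1 CPM in CF and 16.6 and 19.0 CPM in WT at day 65. The value of 35.1 CPM is of CF replicate 2, the library in which liver markers stood out. The part of other tissue in it was not tested.

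ADGRF1, or GPR110, a receptor for a lipid made from docosahexaenoic acid in mouse neurons, was the member most like ADGRG7 in its course. It lies on chromosome 20 from 20186229 to 20233831 on the minus strand, near ADGRF5, with 3893 bases of exon. In CF it stood at 5.29 and 3.16 CPM at day 65, at 4.62 and 7.19 CPM at day 80, at 31.2 and 19.1 CPM at day 100, at 27.8 and 44.9 CPM at day 120 and at 37.2 and 32.8 CPM at birth. In WT it stood at 9.01 and 22.2 CPM at day 65, at 8.69 and 1.46 CPM at day 80, at 39.6 and 45.2 CPM at day 100, at 88.5 and 42.9 CPM at day 120 and at 24.0 and 94.3 CPM at birth. In each genotype the means at days 65 and 80 lay below those from day 100 on. WT day 65 replicate 2, at 22.2 CPM, was near WT birth replicate 1, at 24.0 CPM, and above CF day 100 replicate 2, at 19.1 CPM. CF lay below WT with no overlap at days 65 and 100, beside 23.7% and 30.0% of all tested genes. The genotype difference did not pass the test: the log2 fold change of CF over WT was -0.81 ± 0.34 over the mean of the ages, with an adjusted p of 0.395 (edgeR quasi-likelihood test, Benjamini-Hochberg over all tested genes), and -1.88 ± 0.79 at day 65 (edgeR adjusted p = 1.00), where it was -0.77 without the 4 libraries with markers of another tissue.

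The development of ADGRF1 did pass. Birth against day 65 gave a log2 fold change of 2.49 ± 0.57 over the mean of the genotypes (edgeR adjusted p = 0.00921), and birth lay above day 65 without overlap in each genotype, as for 15.5% of all tested genes. In CF alone it was 3.05 ± 0.82 (edgeR adjusted p = 0.0493), and in WT alone it was 1.92 ± 0.78, which did not pass (edgeR adjusted p = 0.136). The difference between these developments, 1.12 ± 1.08 for CF minus WT, did not pass either (edgeR adjusted p = 0.914). The CF call held in 4 of the 20 fits that each left out a library, and the call over both genotypes was lost without WT day 65 replicate 1 (edgeR adjusted p = 0.0530) or without CF day 65 replicate 2 (0.0535). Birth against day 65 for ADGRG7 was 4.92 ± 0.58 in CF and 0.28 ± 0.49 in WT, given without a test because the day 65 libraries chose the gene. Over the 20 libraries the log2 levels of ADGRG7 and ADGRF1 had a Pearson r of 0.79, the highest of the 15 pairs among the 6 genes; the libraries share age, depth and tissue make-up, so this is a description.

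ADGRE5, better known as CD97, carries epidermal growth factor-like repeats, binds the complement regulator CD55 and is found on leukocytes, smooth muscle and some epithelia. It lies on chromosome 5 from 9394600 to 9412367 on the minus strand, with 3242 bases of exon. Its level varied least between replicates of the 6 genes, with a within-group SD of 0.10 on the log2 scale, and it stood far above all other libraries in the WT birth pair. In CF it stood at 63.1 and 59.4 CPM at day 65, at 67.9 and 64.1 CPM at day 80, at 93.8 and 76.2 CPM at day 100, at 77.8 and 75.2 CPM at day 120 and at 58.0 and 58.3 CPM at birth. In WT it stood at 44.0 and 48.6 CPM at day 65, at 73.6 and 88.1 CPM at day 80, at 64.9 and 66.2 CPM at day 100, at 70.0 and 68.3 CPM at day 120 and at 164 and 161 CPM at birth. The other 18 libraries ran from 44.0 to 93.8 CPM, so both WT birth libraries lay above all of them and both CF birth libraries within their range.

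The log2 fold change of CF over WT for ADGRE5 was 0.40 ± 0.16 at day 65, -0.29 ± 0.16 at day 80 and 0.38 ± 0.16 at day 100. It was 0.15 ± 0.16 at day 120, and birth gave -1.48 ± 0.17, also without the 4 libraries with markers of another tissue (-1.48). The genotypes did not overlap at any of these ages: CF was above WT at days 65, 100 and 120 and below WT at day 80 and at birth, where the WT mean was 2.79 times the CF mean. Over all tested genes CF was above WT in both libraries for 23.8% at day 65, 40.5% at day 100 and 8.91% at day 120, and below WT for 10.8% at day 80 and 15.6% at birth. Because of these opposite directions the mean of the ages was only -0.17 ± 0.07. Birth against day 65 was -0.07 ± 0.16 in CF and 1.81 ± 0.17 in WT, so the 2 developments differed by -1.89 ± 0.23, CF minus WT. In the order of group means WT birth (163 ± 2.17 CPM) was followed by CF day 100 (85.0 ± 12.4 CPM), which overlapped WT day 80 (80.8 ± 10.3 CPM), and WT day 65 was lowest at 46.3 ± 3.19 CPM (SD, n = 2 each). The CF birth libraries, at 58.0 and 58.3 CPM, are the pair that shares 1 identifier, and with that pair and the WT day 100 pair each summed the difference at birth was -1.47.

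Leukocyte markers were also lower in CF at birth. The 20 markers summed to 139 and 156 CPM in CF and 225 and 226 CPM in WT, 18 of the 20 had a log2 fold change below 0, and the median was -0.65, but none of the 20 passed the edgeR test at that age, where 5 had an unadjusted p below 0.05 and DESeq2 called 1. Over all genes 1592 of 20097 had an unadjusted edgeR p below 0.05 at birth, and DESeq2 called 420 of 19707. With library size alone as the scale, 15 of the 20 were below 0. Per 1000 CPM of these markers ADGRE5 was at 416 and 375 CPM in CF and at 729 and 711 CPM in WT at birth, so the genotypes did not overlap on that scale either. Values as high as those of WT birth occurred on the same scale at WT day 100, at 711 and 716 CPM. The highest leukocyte sums, 723 CPM in WT day 65 replicate 2 and 782 CPM in WT day 80 replicate 2, went with ADGRE5 levels of 48.6 and 88.1 CPM. These are the 2 libraries in which thymus markers stood out, at 216 and 138 CPM against at most 12.02 CPM elsewhere, and the leukocyte list holds T cell genes, which thymus also carries.

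**Figure D3:**
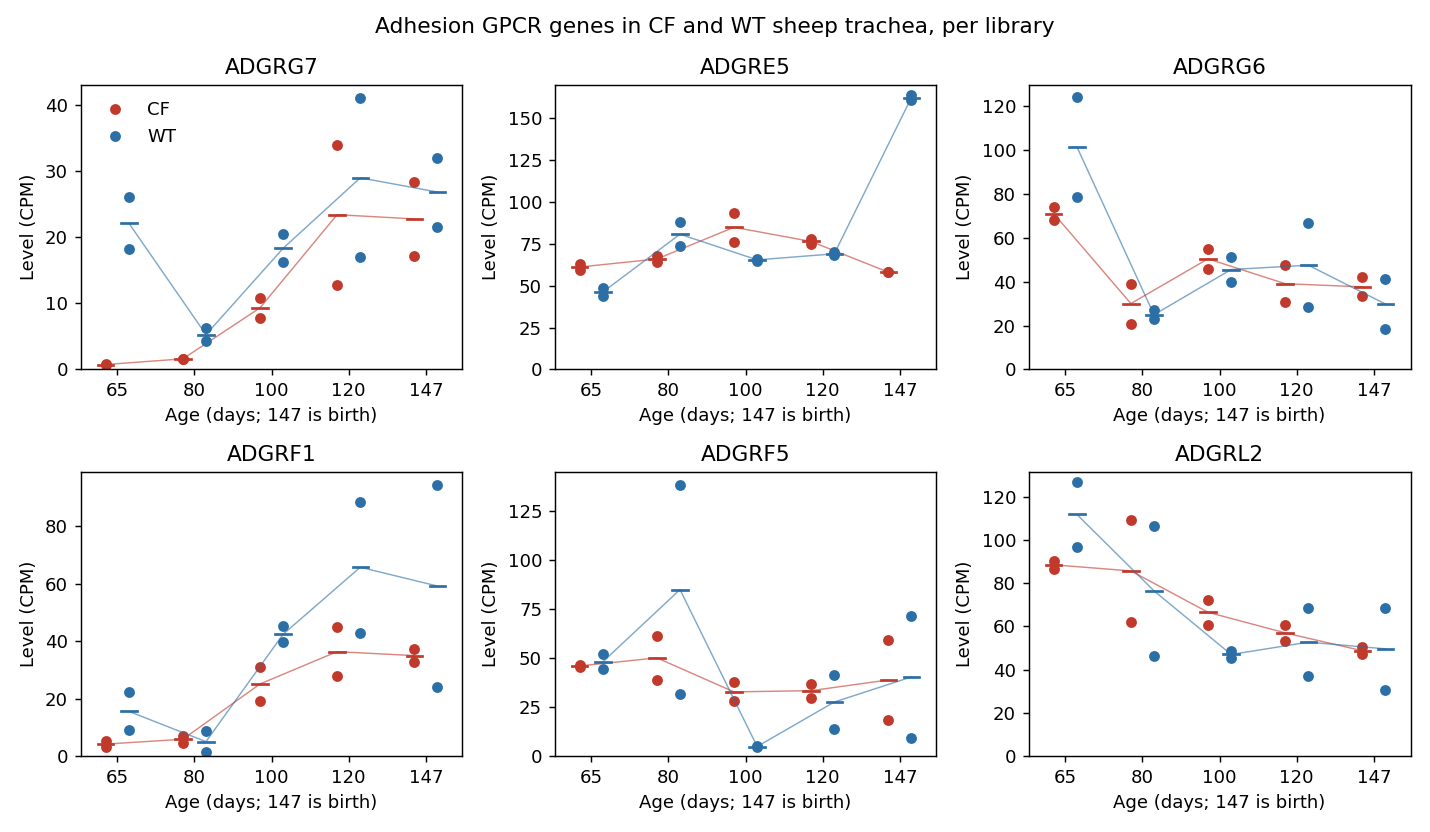
Level of the 6 adhesion GPCR genes in CPM by age (day 147 is birth), CF in red and WT in blue; points are libraries, bars the mean of 2 and lines join the means. ADGRE5 stands at 164 and 161 CPM in WT at birth against 58.0 and 58.3 CPM in CF, and ADGRF5 at day 100 stands at 27.9 and 37.6 CPM in CF against 4.73 and 5.16 CPM in WT.

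ADGRE5 binds CD55, the membrane glycoprotein THY1 and the integrins of the genes ITGA5, ITGAV, ITGB1 and ITGB3. Of these 6 partners, CD55 rose with age in both genotypes. It stood at 350 and 269 CPM at birth and 88.7 and 76.2 CPM at day 65 in CF, a log2 fold change of 1.91 (edgeR adjusted p = 0.0201), and at 405 and 433 CPM at birth and 105 and 95.9 CPM at day 65 in WT, a log2 fold change of 2.06 (edgeR adjusted p = 0.0123). These calls held in 16 of the 20 fits that each left out a library in CF and in 17 in WT, being lost without any 1 of the CF day 65 and birth libraries (adjusted p from 0.0676 to 0.197) and without WT day 65 replicate 1 (0.105), WT day 65 replicate 2 (0.0998) or WT birth replicate 2 (0.0658). ITGA5 stood at 32.3 and 51.7 CPM at birth and 99.2 and 123 CPM at day 65 in CF (-1.41, edgeR adjusted p = 0.0443), and this call held in 7 of the 20 fits that each left out a library. The difference of the developments did not pass for any of the 6 partners. At day 100 ITGA5 and THY1 were higher in CF. ITGA5 stood at 66.7 and 89.3 CPM in CF and 18.8 and 9.76 CPM in WT (log2 fold change 2.45, edgeR adjusted p = 0.00832). THY1 stood at 138 and 129 CPM in CF and 33.5 and 16.5 CPM in WT (log2 fold change 2.42, edgeR adjusted p = 0.0294). At that age 1.46% of all tested genes were called, and 1.40% were called higher in CF. With the WT day 100 pair of 1 identifier summed, neither passed (edgeR adjusted p of 0.151 for ITGA5 and 0.360 for THY1), and of the 20 fits that each left out a library ITGA5 passed in 18 and THY1 in 12. At birth all 6 partners had a log2 fold change of CF over WT below 0 and none passed the edgeR test, with a lowest adjusted p of 0.475. There 1 of the 6 had an unadjusted p below 0.05 and DESeq2 called 0. Over all tested genes 1592 of 20097 had an unadjusted edgeR p below 0.05 at birth.

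ADGRF5, or GPR116, lowers surfactant secretion by alveolar cells of the lung and is also made by endothelium. It lies on chromosome 20 from 20028826 to 20104331 on the minus strand, with 7198 bases of exon. Its level differed widely between replicates. In CF it stood at 45.4 and 46.5 CPM at day 65, at 61.2 and 38.9 CPM at day 80, at 27.9 and 37.6 CPM at day 100, at 36.9 and 29.8 CPM at day 120 and at 18.5 and 59.1 CPM at birth. In WT it stood at 51.8 and 44.3 CPM at day 65, at 31.5 and 138 CPM at day 80, at 4.73 and 5.16 CPM at day 100, at 41.5 and 13.7 CPM at day 120 and at 71.4 and 9.26 CPM at birth. Only at day 100 did the genotypes stand apart, with CF above WT, as for 40.5% of all tested genes. The ratio of means there was 6.63. That log2 fold change, 2.73 ± 0.90, did not pass the edgeR test (adjusted p = 0.191), while DESeq2 gave an adjusted p of 0.0256. Both WT samples of day 100 carry 1 identifier, so their spread may not be that between animals. The mean of the ages was 0.42 ± 0.38 (edgeR adjusted p = 0.726), and birth against day 65 was -0.25 ± 0.59 (edgeR adjusted p = 0.813).

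ADGRF5 went with the endothelial markers from library to library. The 12 markers summed to 482 and 737 CPM in CF and 178 and 137 CPM in WT at day 100, and all 12 had a log2 fold change above 0 there. The highest sum, 2041 CPM, was in WT day 80 replicate 2, the library with thyroid markers, which also held the most ADGRF5. At birth in WT the sums were 951 and 307 CPM, beside 71.4 and 9.26 CPM of ADGRF5. Per 1000 CPM of the markers ADGRF5 ran from 26.6 to 75.1 CPM over the 20 libraries, a 2.82-fold range, while its own level ran over a 29.2-fold range. The genes with the most similar levels over the 20 libraries, among 12500 compared, were PTPRB, a phosphatase of endothelial cells (Pearson r 0.99), STARD8 (0.97), the transcription factor ETS1 (0.97), SHE (0.97) and ZNF366 (0.97). Its reported binding partners changed with age in opposite directions. SFTPD, surfactant protein D, gave a log2 fold change of 2.599 for birth against day 65 over both genotypes (edgeR adjusted p = 0.000986) and FNDC4, a secreted protein, gave -1.26 (edgeR adjusted p = 0.0330).

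**Figure D4:**
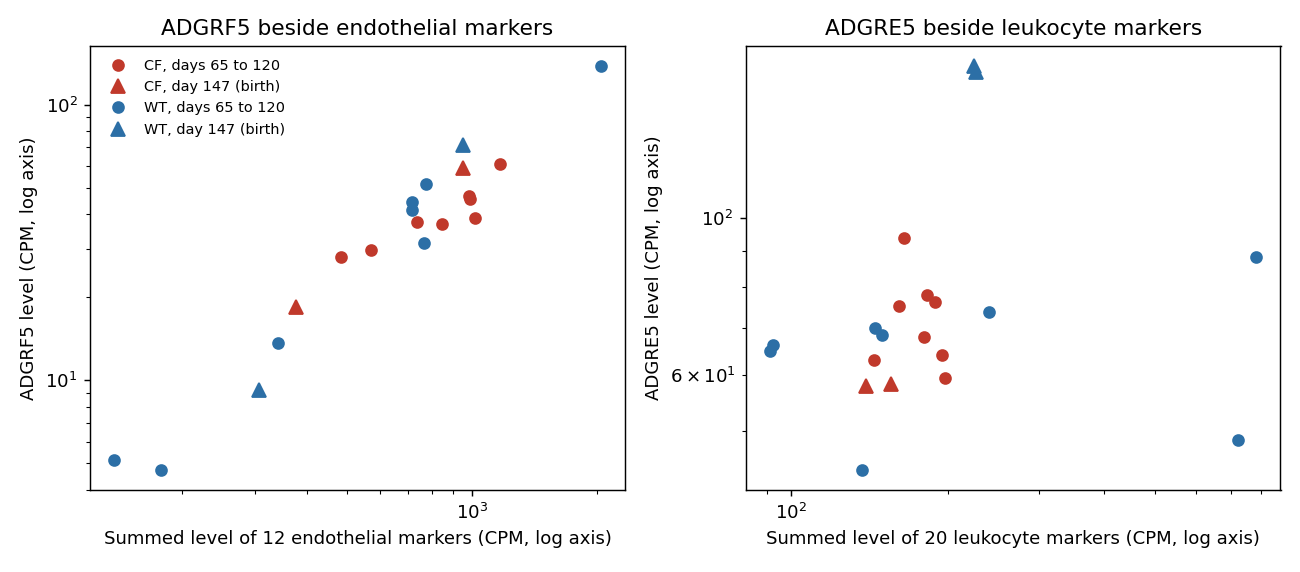
Levels in each of the 20 libraries on log axes, CF in red and WT in blue, with birth as triangles: ADGRF5 against the summed CPM of 12 endothelial markers (left) and ADGRE5 against the summed CPM of 20 leukocyte markers (right). ADGRF5 lies along 1 line over a 29.2-fold range of its level, while on the right the 2 WT birth libraries, at 164 and 161 CPM, lie above libraries with more leukocyte marker RNA.

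ADGRG6, or GPR126, is bound by type IV collagen, laminin-211 and the prion protein and raises cyclic AMP in Schwann cells. It lies on chromosome 8 from 66638992 to 66792285 on the plus strand, with 7594 bases of exon. Its level was highest at day 65 in both genotypes. In CF it stood at 73.7 and 68.1 CPM at day 65, at 20.9 and 39.1 CPM at day 80, at 45.8 and 54.9 CPM at day 100, at 30.6 and 47.4 CPM at day 120 and at 42.0 and 33.2 CPM at birth. In WT it stood at 124 and 78.5 CPM at day 65, at 27.0 and 22.8 CPM at day 80, at 39.8 and 51.1 CPM at day 100, at 66.4 and 28.5 CPM at day 120 and at 41.3 and 18.3 CPM at birth. Birth lay below day 65 with no overlap in each genotype, as it did for 19.3% of all tested genes, by -1.34 ± 0.33 on the log2 scale over both genotypes (edgeR adjusted p = 0.0136). In CF alone the log2 fold change was -0.92 ± 0.46, which did not pass (edgeR adjusted p = 0.330), and in WT alone it was -1.77 ± 0.47 (edgeR adjusted p = 0.0363). The call over both genotypes was lost without WT day 65 replicate 1 (edgeR adjusted p = 0.0626), WT birth replicate 2 (0.0577) or CF birth replicate 2 (0.0672), and the WT call held in 9 of the 20 fits that each left out a library. The difference of the developments, 0.85 ± 0.65 for CF minus WT, did not pass (edgeR adjusted p = 0.914). CF against WT averaged over the ages was -0.01 ± 0.20 (edgeR adjusted p = 1.00).

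The 8 Schwann cell markers did not follow the same course, at 453 and 348 CPM in CF and 278 and 214 CPM in WT at birth, beside 338 and 337 CPM in CF and 333 and 249 CPM in WT at day 65. Of the 6 partner genes of ADGRG6 (COL4A1, COL4A2, LAMA2, LAMB1, LAMC1 and PRNP) none was called by edgeR for birth against day 65 (2 at an unadjusted p below 0.05, and 0 by DESeq2), and 5 of the 6 had a log2 fold change below 0, with a median of -0.49. Over all tested genes 6636 of 20097 had an unadjusted edgeR p below 0.05 for that comparison. The genes nearest to ADGRG6 over the 20 libraries were TIAM1, an activator of the GTPase Rac (Pearson r 0.94), FAM171A1 (0.93), SOX5, a transcription factor of cartilage formation (0.93), PPIP5K2 (0.93) and CUL4B, a ubiquitin ligase scaffold (0.93).

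ADGRL2, latrophilin 2, binds teneurins and FLRT proteins on neighbouring cells and is known from synapses. It lies on chromosome 1 from 57669271 to 57987131 on the plus strand, with 10845 bases of exon, the longest of the 6. In CF it stood at 86.5 and 90.4 CPM at day 65, at 109 and 62.2 CPM at day 80, at 60.8 and 72.3 CPM at day 100, at 53.4 and 60.6 CPM at day 120 and at 50.3 and 47.2 CPM at birth. In WT it stood at 127 and 96.8 CPM at day 65, at 46.3 and 107 CPM at day 80, at 48.6 and 45.4 CPM at day 100, at 68.4 and 37.1 CPM at day 120 and at 68.7 and 30.5 CPM at birth. Birth lay below day 65 with no overlap in each genotype, again beside 19.3% of all tested genes. The log2 fold change was -1.02 ± 0.31 over both (edgeR adjusted p = 0.0394), -0.86 ± 0.44 in CF (edgeR adjusted p = 0.345) and -1.17 ± 0.44 in WT (edgeR adjusted p = 0.114). The call over both held in 7 of the 20 fits that each left out a library, with adjusted p from 0.0117 to 0.137. CF lay below WT at day 65 and above WT at day 100 with no overlap, beside 23.7% and 40.5% of all tested genes. The log2 fold changes there were -0.34 ± 0.44 and 0.50 ± 0.44, and neither passed the edgeR test (adjusted p of 1.00 and 0.614). Over the mean of the ages the fold change was 0.08 ± 0.20 (edgeR adjusted p = 0.930).

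Some partners of latrophilins fell with age as well. Of the 7 genes (TENM1 to TENM4 and FLRT1 to FLRT3) 4 were called lower and none higher by edgeR for birth against day 65 over both genotypes, beside 18.6% of all tested genes called and 9.86% called lower. Their median log2 fold change was -1.47, against -0.03 for all tested genes. FLRT2, a membrane protein that guides migrating cells, stood at 30.8 and 26.2 CPM at birth and 106 and 119 CPM at day 65 in CF, and at 33.7 and 26.9 CPM at birth and 135 and 123 CPM at day 65 in WT. Its log2 fold change was -2.04 ± 0.20 over both genotypes (edgeR adjusted p = 4.33e-05). FLRT3 gave -0.98 ± 0.22 (edgeR adjusted p = 0.00891), TENM2 -1.75 (edgeR adjusted p = 0.0160) and TENM1 -1.06 (edgeR adjusted p = 0.0433). Among the genes nearest to ADGRL2 over the 20 libraries were TCAF1 (Pearson r 0.97), the integrin chain ITGB1 (0.96), NLN (0.95) and BAZ1B (0.95).

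ADGRG7 and ADGRE5, described above without a test, are left out of all counts over the family. Of the others, 12 of 28 receptors were called for birth against day 65 over both genotypes, 4 higher and 8 lower, where 18.6% of all tested genes were called, 8.77% higher and 9.86% lower. The median log2 fold change of these 28 was -0.77. With library size alone as the scale, the median of all genes moved by -0.28, and 1 of the 28 (ADGRF1) was called higher and 8 lower. That fit called 4035 of 20097 genes over all those tested. With each pair of 1 identifier summed, 3 of the 28 were called, and ADGRG6 (edgeR adjusted p = 0.0699) and ADGRL2 (0.141) were among those lost. The length slope was 0.07 and -0.07 in CF and 0.10 and -0.24 in WT at birth, beside 0.10 and 0.10 in CF and 0.24 and 0.16 in WT at day 65. With it as a covariate 10 of the 28 were called, ADGRF1 (edgeR adjusted p = 0.0379) and ADGRG6 (0.0319) among them, and ADGRL2 was not (0.0963). Over all tested genes the fit with this covariate called 6070 of 20097. In CF alone 4 of the 28 were called, ADGRF1 and ADGRG1 higher and ADGRG2 and ADGRB2 lower, beside 5.49% of all tested genes (1.78% higher and 3.71% lower). In WT alone ADGRG2, ADGRL1, ADGRB1 and ADGRG6 were called, all 4 lower, beside 8.23% of all tested genes (3.70% higher and 4.53% lower). Of the 20 fits that each left out a library, the CF call held in 7 for ADGRG1, 16 for ADGRB2 and 19 for ADGRG2, and the WT call in 5 for ADGRL1, 7 for ADGRB1 and 20 for ADGRG2. For any difference among the 5 ages 10 of the 28 were called, beside 17.9% of all tested genes. Of the members tested, ADGRF1, ADGRG6 and ADGRL2 were among the 12, and for any age ADGRF1 (edgeR adjusted p = 0.00500) and ADGRG6 (0.0188) passed while ADGRL2 (0.0969) and ADGRF5 (0.107) did not. The receptors called for any age but not for birth against day 65 were ADGRE3 (edgeR adjusted p = 0.0458) and ADGRG3 (edgeR adjusted p = 0.0443), both below 1 CPM in every library.

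**Figure D5:**
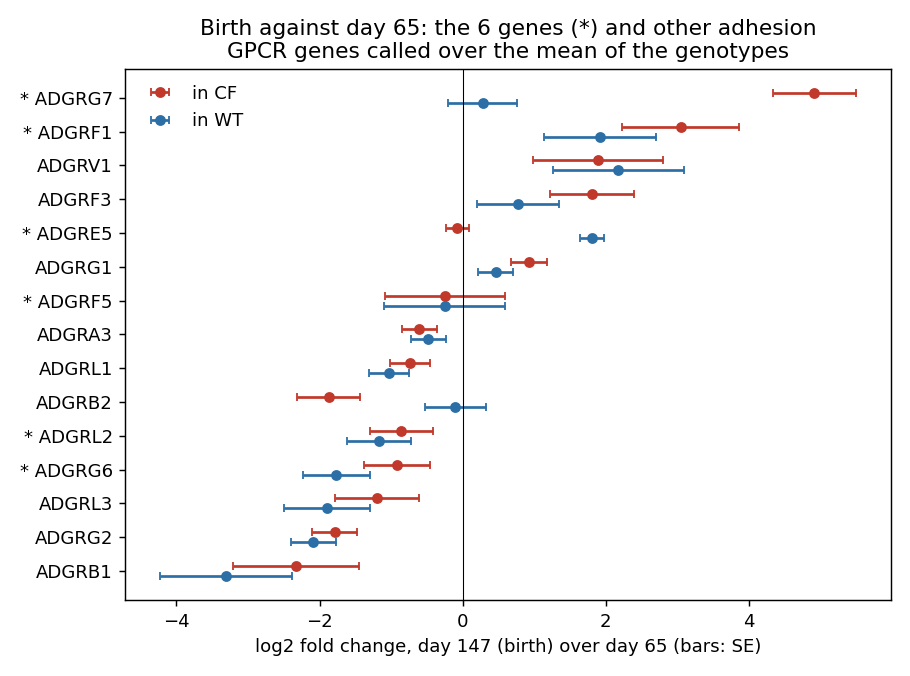
Log2 fold change of birth over day 65 with its SE, in CF (red) and in WT (blue), for the 6 genes (stars, shown whether called or not) and the other 9 adhesion GPCR genes called over the mean of the genotypes, ordered by that mean. The CF and WT values lie far apart for ADGRG7 (4.92 and 0.28) and ADGRE5 (-0.07 and 1.81), whose libraries at these ages chose them, and for ADGRB2 (-1.87 and -0.10), whose difference did not pass.

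The receptors that rose with age outside the 6 genes were ADGRG1, ADGRV1 and ADGRF3. ADGRG1, or GPR56, a receptor for type III collagen known from cortical development, stood at 119 and 109 CPM at birth and 64.2 and 55.9 CPM at day 65 in CF, and at 93.4 and 77.0 CPM at birth and 64.6 and 59.1 CPM at day 65 in WT (log2 fold change 0.70 ± 0.17, edgeR adjusted p = 0.0152). ADGRV1, a very large receptor of sensory hair bundles that is mutated in Usher syndrome, gave 2.04 ± 0.64 (edgeR adjusted p = 0.0436), and ADGRF3 gave 1.29 ± 0.41 (edgeR adjusted p = 0.0450). None of these 3 passed with library size alone as the scale (edgeR adjusted p of 0.248 for ADGRG1, 0.0830 for ADGRV1 and 0.112 for ADGRF3), where all 3 stayed above 0. In all 3, birth lay above day 65 without overlap in each genotype, as it did for 15.5% of all tested genes.

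Of the receptors that fell, ADGRG2 had the lowest adjusted p. It is also called GPR64, a receptor of the duct epithelium of the epididymis. It stood at 6.54 and 5.11 CPM at birth and 22.5 and 17.7 CPM at day 65 in CF, and at 9.95 and 6.10 CPM at birth and 37.3 and 30.9 CPM at day 65 in WT (log2 fold change -1.94 ± 0.22, edgeR adjusted p = 0.000102). It passed in each genotype alone, at -1.79 in CF (edgeR adjusted p = 0.00501) and -2.09 in WT (edgeR adjusted p = 0.00230). ADGRB1, or BAI1, a receptor for phosphatidylserine on dying cells, gave -2.82 ± 0.64 over both genotypes (edgeR adjusted p = 0.00877) at levels of at most 3.53 CPM at those ages. The other latrophilins were lower at birth too, ADGRL1 at -0.88 ± 0.20 (edgeR adjusted p = 0.00874) and ADGRL3 at -1.55 ± 0.42 (edgeR adjusted p = 0.0220). ADGRB2 (-0.99 ± 0.30, edgeR adjusted p = 0.0399) and ADGRA3, or GPR125 (-0.54 ± 0.18, edgeR adjusted p = 0.0477) were the remaining ones. In the 20 fits that each left out a library, ADGRG2 and ADGRB1 passed in all 20, ADGRL1 in 19, ADGRG1 in 17, ADGRL3 in 16, ADGRV1 and ADGRB2 in 5, ADGRF3 in 4 and ADGRA3 in 3. ADGRB2 was called in CF (-1.87, edgeR adjusted p = 0.0266) and not in WT (-0.10, edgeR adjusted p = 0.894), where it stood at 27.8 and 29.9 CPM at birth and 30.6 and 31.3 CPM at day 65; the difference of these developments did not pass for any of the 28.

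None of the 28 receptors was called for CF against WT averaged over the ages, where 0.766% of all tested genes were called. None was called by edgeR at day 65 (0.00995% of all tested genes), day 80 (0%), day 100 (1.46%), day 120 (0%) or birth (0.0945%), or for the difference of the developments (0.00498%). At an unadjusted p below 0.05 edgeR had 2 of the 28 averaged over the ages, 2 at day 65, 4 at day 80, 8 at day 100, 0 at day 120, 4 at birth and 2 for the difference of the developments. Over all 20097 tested genes the same counts were, in that order, 2254, 682, 1924, 2479, 279, 1592 and 962. DESeq2 called ADGRB1 averaged over the ages (1.17, adjusted p = 0.0405) and 4 at day 100, all higher in CF, namely ADGRD1 (3.02, adjusted p = 0.00160), ADGRF5, ADGRG2 and ADGRL1. Over all genes given an adjusted p, DESeq2 called 829 of 19317 averaged over the ages and 1210 of 20097 at day 100. At birth it called ADGRB2 (-1.66, adjusted p = 0.0202) and ADGRD1 (-2.42, adjusted p = 0.0420), both lower in CF, and at days 65, 80 and 120 it called 0. Over all genes its calls were 420 of 19707 at birth. They were 150 of 20097, 693 of 19707 and 17 of 20097 at days 65, 80 and 120. At day 100, 22 of the 28 had a log2 fold change above 0, with a median of 1.03, against 0.12 for all tested genes. At that age the 12 endothelial markers had a median of 2.02, the 20 leukocyte markers 1.48 and the 14 epithelial markers -0.73, and the part of these in the receptors' values was not tested. The length slope was 0.07 and 0.07 in CF and -0.15 and -0.10 in WT at that age, and the WT pair shares 1 identifier. With the length slope as a covariate ADGRF5 stood at 1.75 and ADGRL2 at -0.08, and edgeR called 1 of the 28, ADGRG2 (0.96, adjusted p = 0.0497). Over all tested genes that fit called 723 of 20097 at day 100. Counted by libraries, CF lay below WT without overlap at day 65 for ADGRG6, ADGRF1 and ADGRL2, 3 of the 4 members not chosen by their difference, beside 23.7% of all tested genes. Of the rest of the 28, ADGRA2, ADGRA3, ADGRG2, ADGRL1, ADGRL3 and ADGRV1 did so too. CF lay above WT without overlap for ADGRB2 and ADGRL4, beside 23.8% of all tested genes, and the others overlapped.

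G protein alpha subunits carry the receptors' signal into the cell. Of 13 subunits 2 were called by edgeR for birth against day 65 over both genotypes, both lower, GNAI3 at -0.37 and GNAI2 at -0.49 (edgeR adjusted p of 0.0308 and 0.0413), beside 18.6% of all tested genes called and 9.86% called lower. None of the 13 was called by edgeR for CF against WT, averaged over the ages or at any age, and DESeq2 called 0 as well. At an unadjusted p below 0.05 edgeR had 1 of the 13 at day 100 and 0 at the other ages and averaged over them. Over all tested genes the count at day 100 was 2479 of 20097.

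Genes with the most similar levels over the 20 libraries were also sought for the remaining 3 members. For ADGRG7 they were CD164, a sialomucin (Pearson r 0.85), NWD1 (0.84), TLR1, a receptor for bacterial lipopeptides (0.84), the kinase STK38 (0.83) and CCPG1, which guides the endoplasmic reticulum to autophagy (0.82). For ADGRE5 they were NMT1, which attaches myristate to proteins (0.83), the mitochondrial ADP carrier SLC25A5 (0.82), HDLBP (0.75), GCLC, the rate-limiting enzyme of glutathione synthesis (0.75), and LETM1 (0.74). For ADGRF1 they were GFRA3 (0.91), CD55 (0.91), C1H1orf141 (0.90), UGT2A1 (0.89) and ZBBX (0.89). All these values are descriptions over libraries that share age and tissue make-up.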

How the data were processed

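RNA sequencing of sheep tracheal tissue was deposited as gene-by-sample tables of CF and of WT, whose values are unnormalized whole-number counts. Per the submitters' processing notes, the authors used STAR 2.6 for alignment, and featureCounts 1.6.3 (Subread) for counting. Build, annotation and strand setting: not given in the sources used here. Positions and exon lengths are as in the file headers. Small values were mostly even (70.7% to 85.3% of those up to 20 per library, 50.1% to 58.3% from 1000 on), so counting error may exceed what the counts state. Samples were grouped by title. Within each group, replicates differed beyond counting noise (chi-square per gene from 37.6 to 1662), and none was taken as a copy.

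filterByExpr left 20097 genes, which were scaled by TMM and fitted over all 20 samples with 1 coefficient per group in edgeR 4.0.16 (R 4.3.3; glmQLFit robust, glmQLFTest), with Benjamini-Hochberg adjustment over all of them and a threshold of 0.05. The SE is the absolute log2 fold change over the square root of F. CPM uses TMM sizes, and genes were set against each other only per kilobase of exon. Likeness is Pearson's r of log2 CPM (prior count 2), among genes with a symbol whose mean was at least 1. The fit was also run on data simulated from 1 mean per gene, with set fold changes added. That simulation held no other tissue, length slope or shared identifier, and its outcome is not reported here. Alternatives used DESeq2 1.42.0, library size alone, no filter, a replicate block, summed pairs of a shared identifier, leaving out the 4 libraries with other tissue, a length slope, and leaving out each library.

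The members, lists and tests were chosen with earlier results of these data known. Named besides the 6 genes were family genes passing the threshold, up to 4 passing partner or transducer genes per comparison, and the 5 genes most like each member. CELSR1, ADGRA2, ADGRF4, ADGRL4, TENM1, TENM2, FNDC4, GNAI3, GNAI2, VIL1, GPA33, CDH17 and the receptors called by DESeq2 alone were named after their values were seen. Some results of the lists are not reported here. No sequence was used here.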

Additional observations from a re-analysis of the deposited data

Results flagged for a closer look

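For ADGRE5 the libraries of the 2 genotypes stood apart at every age but in opposite directions. The log2 fold change of CF over WT was 0.40 at day 65, 0.38 at day 100 and 0.15 at day 120, with both CF libraries above both WT libraries. It was -0.29 at day 80 and -1.48 at birth, with both CF libraries below both WT libraries. Of all tested genes 23.8%, 40.5% and 8.91% lay above in this way at days 65, 100 and 120. Below in this way lay 10.8% at day 80 and 15.6% at birth. For ADGRL2 the log2 fold change was -0.34 at day 65, with CF below WT, and 0.50 at day 100, with CF above WT. These positions held for 23.7% and 40.5% of all tested genes. The difference between ages was not tested for either gene, since ADGRE5 was chosen for its values at birth and the ages of ADGRL2 were picked by their directions.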

How the results depend on the processing

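With 2 samples a group, 1 library can decide a call, and at day 65 the CF level of ADGRG7 rests on at most 57 counts. Leaving aside single left-out libraries, 386 recomputed gene values kept their direction and call (or, where not tested, moved by less than the replicate SD), 54 lost their call, 1 gained one, 10 untested ones moved and 4 changed sign. Causes were not tested.

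Counts of called adhesion GPCR genes, with ADGRG7 and ADGRE5 left out, moved as follows. For the genotype comparisons, 0 by edgeR, DESeq2 called 1 averaged over the ages, 4 at day 100 and 2 at birth, and the length slope 1 at day 100. Over all genes DESeq2 called 829 of 19317, 1210 of 20097 and 420 of 19707 there, and the length slope 723 of 20097. For birth against day 65 in CF (4 calls), library size alone gave 2, the replicate block 2, summed pairs 0 and leaving out the 4 libraries with other tissue 2. In WT (4 calls), summed pairs gave 1, leaving out the 4 libraries 2 and the length slope 2. Over both genotypes (12 calls) summed pairs gave 3, and for any age (10 calls) summed pairs gave 4 and leaving out the 4 libraries 5. Over all tested genes, birth against day 65 in CF had 1289 of 20097 calls with library size alone and 905 of 20097 with the replicate block. In WT the length slope gave 3297 of 20097. The any-age test was not run with DESeq2. Leaving out 1 library gave 0 to 4 calls in CF, 1 to 6 in WT, 4 to 13 over both, 5 to 14 for any age, and 0 to 1 for CF against WT at day 80, day 100 or birth.

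ADGRE5 at birth gave -1.38 with library size alone, and at day 100 0.57 with library size alone and 0.25 with summed pairs. Among tested values signs changed, none of them past the threshold, for ADGRG6 averaged over the ages (0.0414 with library size alone, 0.0132 with the replicate block, -0.13 to 0.14 without 1 library), ADGRL2 at day 100 with the length slope (-0.0828) and averaged over the ages (-0.0245 to 0.23 without 1 library), and ADGRF5 for birth against day 65 (0.56 with the length slope, -1.31 to 0.19 without 1 library). Without 1 library the untested ADGRG7 values ran from -1.18 to 0.47 at day 120, from -0.64 to 0.08 at birth and from -0.0390 to 0.56 for birth against day 65 in WT.

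Replicate numbers were not taken to pair samples in the main fit. Over 45 pairs of groups the correlation of same-numbered deviations ran from -0.588 to 0.733, with a median of 0.0231 and 12 above 0.1. With 2 samples a group, this cannot show whether pairing or a batch by replicate number was present. The block moved no other of these counts by over 1.5 times.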
